A study of Mus musculus with 4 samples.

Results

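Heat shock proteins and chaperonins were examined in muscle satellite cells, which rebuild fibres after injury, sorted from aged and young mice. Members were the genes whose symbols begin with Hspa, Hspb, Hspd, Hspe, Hsph, Dnaja, Dnajb, Dnajc or Cct and a digit, or with Hsp90, together with Bag3. They numbered 80 of the 18193 genes on the array that had at least 1 probe set annotated to a single gene, and were read by 196 probe sets. Aged mice were 20 to 25 months old and young mice 3 to 6 months old, all of the strain C57BL/6J, with no mutation or drug named for either group. Cells of several hindlimbs were pooled (4 to 8 mice per pool by the series text, 6 to 8 by the sample text) and sorted by FACS on syndecan-4, a surface proteoglycan that other cell types can also carry. Each age had 2 independent pools, with 1 Affymetrix array per pool after 2 rounds of T7 amplification of the RNA. The array number limits the precision of every value below, and mouse-to-mouse spread within a pool is not seen.

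Values were taken as log2 and lie relative to the median of each probe set over the 4 arrays. They show how the pools differ and carry no absolute level, so no gene can be called abundant or absent and no gene's level can be set against another's. For a gene with a single probe set, the arrays in the middle of the order lie at equal distances above and below 0. A difference is the mean of the aged pools minus the mean of the young pools on the log2 scale, and the ± after it is the standard error of the limma fit (n = 2 pools per age). The fit draws the variance of each gene toward a value common to all genes. The error is therefore not the spread of that gene's pools alone.

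Molecular chaperones bind unfolded or partly folded proteins and keep them from aggregating. HSP70 proteins work in cycles of ATP hydrolysis that are started by J proteins (the DNAJA, DNAJB and DNAJC groups) and reset by nucleotide exchange factors of the HSP110 family and by BAG proteins. HSP90 matures kinases and receptors, the CCT ring folds actin and tubulin, and the Hspd1 and Hspe1 ring folds proteins inside mitochondria. Small heat shock proteins hold unfolded clients without ATP, and several of them are most abundant in heart and skeletal muscle, where they sit at the sarcomere. Many chaperone genes are switched on by heat shock factors through heat shock elements, and those of the endoplasmic reticulum by the unfolded protein response through ER stress elements.

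Promoters of 5 members that recur below show where such elements lie, and they are printed for that reason. The letters searched were TTCNNGAA and GAANNTTC for the heat shock element, each its own reverse complement, and, for the ER stress element on both strands, CCAAT and CCACG with 9 bases of any kind between them. Neighbouring heat shock matches may overlap each other. The sequences are from RefSeq on GRCm38.p6 and give the 250 bases before an annotated start. They run 5′ to 3′ on the strand of the gene, with matches in capitals. They cover chr7:30553051-30553300 on the plus strand for Hspb6, chr13:113663677-113663926 on the minus strand for Hspb3, chr5:135887669-135887918 on the plus strand for Hspb1, chr1:55087898-55088147 on the plus strand for Hspe1 and chr2:34771840-34772089 on the plus strand for Hspa5. The capitals mark heat shock elements in the first 4 and an ER stress element in Hspa5. The full annotated extent of Hspb6 begins at chr7:30552535, so its printed bases lie within the gene, ahead of an internal start.
Hspb6: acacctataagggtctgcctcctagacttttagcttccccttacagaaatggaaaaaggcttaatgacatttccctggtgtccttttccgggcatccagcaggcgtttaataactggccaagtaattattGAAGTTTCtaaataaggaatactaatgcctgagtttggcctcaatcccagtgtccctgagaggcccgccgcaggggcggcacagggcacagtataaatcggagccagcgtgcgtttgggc
Hspb3: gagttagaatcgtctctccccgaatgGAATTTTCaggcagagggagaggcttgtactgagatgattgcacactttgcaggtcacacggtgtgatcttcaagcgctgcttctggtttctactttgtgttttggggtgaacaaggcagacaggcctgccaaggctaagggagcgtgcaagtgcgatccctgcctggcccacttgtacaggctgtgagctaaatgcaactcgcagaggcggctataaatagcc
Hspb1: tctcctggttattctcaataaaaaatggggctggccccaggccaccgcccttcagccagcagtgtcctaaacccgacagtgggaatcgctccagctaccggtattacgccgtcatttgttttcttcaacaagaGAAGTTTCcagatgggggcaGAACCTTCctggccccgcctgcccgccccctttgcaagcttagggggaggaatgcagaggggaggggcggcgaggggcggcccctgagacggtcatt
Hspe1: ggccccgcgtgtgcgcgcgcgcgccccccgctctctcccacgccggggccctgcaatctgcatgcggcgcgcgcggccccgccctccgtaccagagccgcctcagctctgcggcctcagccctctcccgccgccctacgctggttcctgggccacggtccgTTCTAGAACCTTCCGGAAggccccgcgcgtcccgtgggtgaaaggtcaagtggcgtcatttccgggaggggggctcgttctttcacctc
Hspa5: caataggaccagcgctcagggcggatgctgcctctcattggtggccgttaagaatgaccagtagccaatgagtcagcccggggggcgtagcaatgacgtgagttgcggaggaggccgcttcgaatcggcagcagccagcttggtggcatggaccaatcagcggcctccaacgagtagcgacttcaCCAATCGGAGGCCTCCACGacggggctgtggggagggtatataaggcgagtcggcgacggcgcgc
The promoter table held 66 of the 80 members. A window of 300 bases, 250 before and 50 after the start, held a heat shock element in 27.1% of the 85 member windows, against 15.1% of all 32851 windows. An ER stress element stood in 3 member windows, those of Hspa5, Hsp90b1 and Dnajc3, and in 0.119% of all windows. A match is a run of letters and was not tested as a binding site.

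No chaperone gene passed the adjusted threshold of 0.05 with limma, which called 0 of 80 members (0% of all genes). At an unadjusted p under 0.05 there were 11 members, 8 lower and 3 higher in aged cells, where the same threshold took 9.04% of all genes, 6.19% lower and 2.85% higher. The 8 lower members were the small heat shock proteins Hspb6, Hspb7, Hspb8 and Hspb3 and the J proteins Dnajb5, Dnajb2, Dnajc21 and Dnajc15. The 3 higher members were Hspa5, Dnajb9 and Dnajc14. The aged and young pools did not overlap in 27 members, or 33.8%, with 13 of them lower and 14 higher, against 36.8% of all genes (16.9% lower and 19.9% higher). Of all members 44, or 55.0%, had a difference below 0, against 46.2% of all genes, and the median difference was -0.05 over members and 0.05 over all genes. Without young replicate 1 the counts became 6 lower and 1 higher, and without aged replicate 2 they became 7 lower and 0 higher. The limma fit with a variance trend called 2 members, Hspb6 and Dnajb5, among 221 of all 18193 genes. Values centred on each probe set carry no level for such a trend to follow, so that fit is only an alternative. Apart from the muscle small heat shock proteins, the median of the other 74 members was -0.01, with 38 of them lower and 36 higher.

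**Figure D1:**
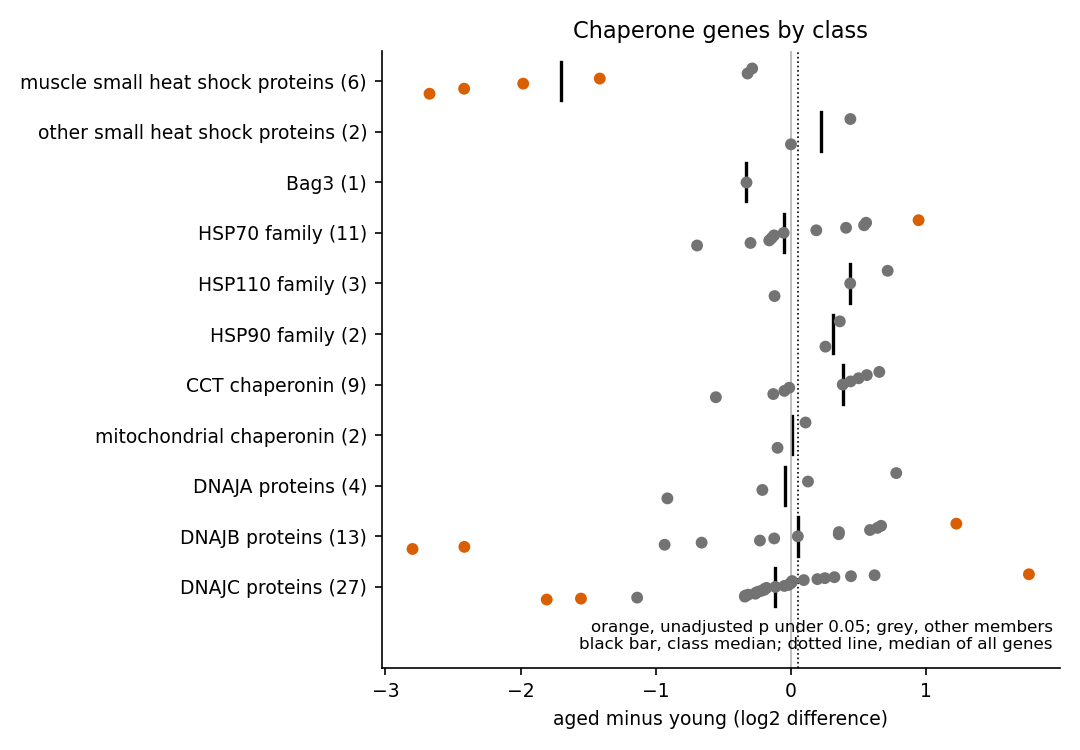
Log2 difference, aged minus young, of each of the 80 chaperone genes (points), by class with the number of members in brackets. Orange points have an unadjusted p under 0.05, black bars are class medians and the dotted line is the median of all genes; 4 of the 6 muscle small heat shock proteins are orange and lie below -1.4, while the medians of the other classes lie between -0.33 (Bag3, 1 gene) and 0.44.

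All 6 small heat shock proteins of muscle had lower means in aged cells, with a median difference of -1.70. Of these, 4 had an unadjusted p under 0.05, where 6.19% of all genes were lower at that threshold. Hspb6, a small heat shock protein of heart, skeletal and smooth muscle, stood at -1.06 and -1.48 in the aged pools, against 1.74 and 1.06 in the young pools. Both aged pools lay below both young pools, and the difference was -2.67 ± 0.43, or 6.38-fold lower (adjusted p = 0.150 with limma). Hspb7, a heart and muscle protein that binds the Z-disc protein filamin C, stood at -1.89 and -1.70 in aged pools, against 0.50 and 0.75 in young pools. Both aged pools of Hspb7 lay below both young pools, with a difference of -2.42 ± 0.37 (5.34-fold lower, adjusted p = 0.150). Its 3 probe sets were all lower, from -3.56 to -1.45, but they put the aged pools in different orders. Aged pools 1 and 2 stood at -4.92 and -0.72 in a probe set, but at -0.49 and -2.81 in another. In the last they stood at -0.25 and -1.56. The small gap between the aged values of Hspb7 thus comes from averaging its probe sets.

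Hspb8 delivers damaged filamin and other clients to autophagy together with Bag3. It stood at -1.12 and -0.70 in aged pools, against 1.26 and 0.88 in young pools, again without overlap, and differed by -1.98 ± 0.39 (3.94-fold lower, adjusted p = 0.196). Its 3 probe sets ran from -3.45 to -0.68. Hspb3, a muscle protein that pairs with Hspb2, stood at -0.30 and -0.59 in aged pools, against 1.63 and 0.30 in young pools. The ages did not overlap, but the young pools lay further apart than the lower of them lay from the aged pools. The difference was -1.41 ± 0.54 (adjusted p = 0.519), and it was -0.75 without young replicate 1. The Hspb3 and Hspb6 promoters above each hold 1 match to the heat shock element.

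The remaining muscle small heat shock proteins showed no separation of the ages. Hspb2, the Hspb3 partner, stood at -0.33 and 0.00 in aged pools, against 0.00 and 0.31 in young pools, a difference of -0.32 ± 0.38. Hspb1, which is widely expressed and heat-inducible, stood at 0.54 and -1.11 in aged pools, against -0.22 and 0.22 in young pools. The aged pools of Hspb1 lay on either side of the young ones, and its difference of -0.29 ± 0.62 was smaller than its error. Its promoter above holds 2 heat shock elements. Bag3, itself a heat shock gene, stood at 0.39 and -0.39 in aged pools, against 1.73 and -1.06 in young pools. The young pools of Bag3 enclosed the aged ones (difference -0.33 ± 0.94, adjusted p = 0.966), while those of Hspb8 did not. Outside muscle, Hspb9, a testis protein, stood at 0.44 ± 0.61, and Hspb11, which acts in the transport system of cilia, at 0.00 ± 0.43 with 1 probe set in each direction.

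**Figure D2:**
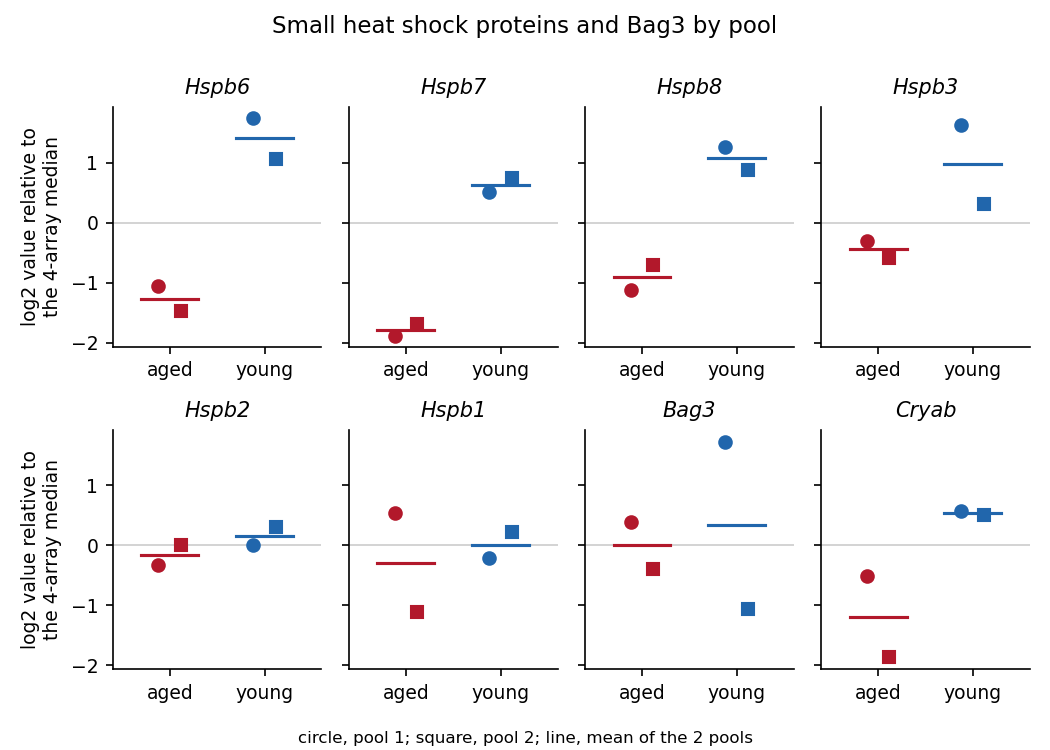
Values of the muscle small heat shock proteins, Bag3 and Cryab in each pool, on the log2 scale relative to the median of the 4 arrays, with aged pools on the left and young pools on the right of each panel. Circles are pool 1, squares pool 2 and lines the mean of the 2 pools; the ages are apart for Hspb6, Hspb7, Hspb8, Hspb3 and Cryab, touch for Hspb2 and overlap for Hspb1 and Bag3.

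Muscle chaperones outside the naming rule were lower in 3 of 3 cases (median -1.72, all at an unadjusted p under 0.05). Over all genes 6.19% were lower at that threshold. Cryab, the small heat shock protein of lens and muscle that guards desmin, stood at -0.50 and -1.87 in aged pools, against 0.57 and 0.50 in young pools. Its aged pools differed from each other by more than the young pools did, and the difference was -1.72 ± 0.54 (adjusted p = 0.411), or -1.04 without aged replicate 2. Of its 3 probe sets 1 was higher, at 0.20. Unc45b, the chaperone of muscle myosin, differed by -1.32 ± 0.46 (-0.85 without aged replicate 2). Smyd1, a methyltransferase that acts with it in myosin assembly, differed by -1.94 ± 0.37 (adjusted p = 0.185). No probe set of Smyd1 lay near that mean. They stood at -4.83, -3.44 and -3.09 or close to no difference, at -0.16, -0.10 and -0.03.

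Markers of mature muscle fibres moved with these genes. All 25 listed fibre genes were lower in aged cells, 24 of them at an unadjusted p under 0.05, with a median difference of -2.97. Over all genes 6.19% were lower at that threshold. The median value of the 25 fibre genes was -1.70 and -1.30 in the aged pools, against 1.30 and 1.37 in the young pools. The median of the 6 muscle small heat shock proteins in the same arrays was -0.70 and -0.90 in aged pools, against 0.88 and 0.53 in young pools. The part of fibre RNA in the lower small heat shock proteins was not tested. In pooled sorted cells, fewer cells of a type and less RNA per cell cannot be told apart. Other marker lists also moved. Pericyte and smooth muscle markers were higher in 9 of 9 cases (median 1.16), T cell markers in 7 of 7 measured of 10 listed (median 0.65) and fibro-adipogenic progenitor markers in 7 of 8 (median 0.94). Macrophage markers were lower in 9 of 10 cases (median -1.10) and endothelial markers in 7 of 9 (median -0.45). Of 14 satellite cell markers 8 were higher (median 0.05), with Pax7, which defines these cells, at 1.08 and 0.90 in aged pools, against -1.39 and -1.24 in young pools. Whether the pools hold the labelled cell type cannot be read from values that carry no level.

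The HSP70 family held 1 member with an unadjusted p under 0.05, the endoplasmic reticulum chaperone Hspa5, or 9.09% against 9.04% of all genes. The 11 members of the family split into 6 lower and 5 higher around a median of -0.05. The ages did not overlap in 3 of them, Hspa5, Hspa1a and Hspa12a, all higher in aged cells. That was 27.3% of the family, against 36.8% of all genes. Hspa5, also called BiP, holds newly made secretory proteins and keeps the sensors of the unfolded protein response inactive. It stood at 0.38 and 0.75 in aged pools, against -0.49 and -0.28 in young pools. The ages did not overlap, and the difference was 0.95 ± 0.38 (1.93-fold higher, adjusted p = 0.547), with 0.86 between pools numbered 1 and 1.03 between pools numbered 2. Its 3 probe sets were all higher, at 0.51, 0.90 and 1.43. Its promoter above holds an ER stress element whose first base is at -65 relative to the start.

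None of the other HSP70 genes had an unadjusted p under 0.05. Hspa8, the constitutive HSP70, stood at 0.06 and -0.66 in aged pools, against -0.06 and 0.06 in young pools, a difference of -0.30 ± 0.42. That value rests on 1 of its 4 probe sets, which differed by -1.88 with -2.97 in aged pool 2, while the other 3 ran from 0.08 to 0.38. The heat-inducible pair was named for its role after its values were seen. Hspa1a stood at 0.05 and 0.41 in aged pools, against -0.31 and -0.05 in young pools (0.41 ± 0.38). Hspa1b stood at -0.58 and 0.29 in aged pools, against -0.15 and 0.15 in young pools (-0.14 ± 0.45). Their promoter windows share 296 of 300 bases, the genes are near-identical copies, and probes may read both. Hspa1l, a testis form, stood at -0.69 ± 0.61, and the distant relative Hspa12a at 0.54 ± 0.39. Hspa9, the mitochondrial HSP70, differed by -0.16 ± 0.41. Hspa13, an HSP70 of microsomes without the substrate domain, stood at 0.56 ± 0.46, with 4 probe sets from -1.60 to 2.28.

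No HSP110 or HSP90 gene had an unadjusted p under 0.05. The ages did not overlap in 3 of these 5, where 36.8% of all genes had no overlap. Hsph1, a heat-inducible HSP110, stood at 0.41 and 0.29 in aged pools, against -0.45 and -0.28 in young pools. Both aged pools were above both young pools, with a difference of 0.72 ± 0.36 (adjusted p = 0.665). Hspa4l stood at 0.44 ± 0.37, also without overlap, and Hspa4 at -0.12 ± 0.39, with 4 probe sets from -2.29 to 1.32. Hsp90aa1, the inducible cytosolic HSP90, stood at 0.14 and 0.34 in aged pools, against -0.07 and -0.17 in young pools. Its difference of 0.36 ± 0.36 equalled its error, and the ages did not overlap. Its 5 probe sets ran from -0.04 to 1.04. The difference was 0.19 when probe sets with names ending in _x_at or _s_at were dropped. Hsp90b1, the HSP90 of the endoplasmic reticulum, stood at 0.26 ± 0.43 with overlapping ages.

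Partners of HSP70 and HSP90 outside the naming rule included lower members. The 8 HSP70 co-chaperones had a median difference of -0.68, with 5 genes below 0 and 3 above. An unadjusted p under 0.05 was reached by 3 of the 5 lower genes, a threshold met by 9.04% of all genes. The ages did not overlap in any of the 8, in either direction, where 36.8% of all genes had no overlap. Stub1, the ubiquitin ligase CHIP that marks HSP70 clients for the proteasome, stood at -0.94 and -0.65 in aged pools, against 0.65 and 1.39 in young pools (-1.81 ± 0.43, adjusted p = 0.268). Bag1, which links HSP70 to the proteasome, stood at -0.65 and -0.995 in aged pools, against 1.13 and 0.65 in young pools (-1.71 ± 0.40). St13, or Hip, which slows HSP70 release, differed by -1.46 ± 0.44. All 3 had no overlap between ages. Among 9 HSP90 co-chaperones measured of 12 listed, 5 were lower (median -0.48), and Sugt1, which acts with HSP90 at kinetochores and immune receptors, had -1.41 ± 0.47. Of the 3 genes measured on the heat shock factor list, the factors themselves stood at 0.40 and 0.68. The gene at -0.95 encodes a protein that binds such factors. None had an unadjusted p under 0.05, and Hsf1 was not analysed here.

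The 9 CCT genes within the naming rule had a median difference of 0.38, which was 0.10 without aged replicate 1 and 0.28 to 0.29 without any other single pool. They include the testis-type Cct6b and Cct8l1 and leave out Tcp1, so this is not the median of the cytosolic ring. Of the 9 genes, 5 were higher and 4 lower, and 0 had an unadjusted p under 0.05. Cct2 stood at 0.06 and 0.81 in aged pools, against -0.06 and -0.37 in young pools (0.66 ± 0.43, adjusted p = 0.792, and 0.28 without aged replicate 2). Its 3 probe sets were all higher, and its ages did not overlap. Cct3 stood at 0.50 ± 0.44 with all 7 probe sets higher, from 0.13 to 0.83, but with overlapping ages and a difference of 0.0594 without aged replicate 1. Cct7 stood at -0.55 ± 0.44 (-0.13 without aged replicate 2) and Cct8 at -0.13 ± 0.66, with the 2 probe sets of Cct8 at -0.83 and 0.57. Of the testis-type subunits, Cct6b stood at -0.05 ± 0.37 with overlapping ages and Cct8l1 at 0.56 ± 0.38 without overlap. Tcp1, the CCT subunit outside the naming rule, differed by -0.46 ± 0.52.

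Of 8 genes on the chaperonin partner list, 6 were lower and 2 higher (median -0.89). Most are subunits of prefoldin, which hands unfolded actin and tubulin to CCT. The list also holds the CCT subunit Tcp1, which is among the lower genes. An unadjusted p under 0.05 was reached by 2 of the 8, both lower, a threshold met by 9.04% of all genes. Pfdn1 stood at -0.26 and -1.33 in aged pools, against 0.26 and 1.33 in young pools (-1.59 ± 0.58). Pfdn2 stood at -0.73 and -0.42 in aged pools, against 0.72 and 0.42 in young pools (-1.15 ± 0.38). Neither passed after adjustment (adjusted p = 0.488 and 0.435), and Pfdn1 was at -1.05 without aged replicate 2 or young replicate 2.

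The mitochondrial chaperonin genes overlapped between ages. Hspd1, the ring subunit, stood at 0.62 and -0.81 in aged pools, against 0.33 and -0.33 in young pools (-0.10 ± 0.59). Hspe1, its lid, stood at -0.38 and 0.32 in aged pools, against -0.31 and 0.03 in young pools (0.11 ± 0.42). The genes point away from each other and share the 3 overlapping heat shock elements printed above for Hspe1. The starts are 216 bases apart when Hspd1 is read from the start whose window holds these matches. The full annotated extents overlap, with Hspd1 reaching chr1:55088243 and Hspe1 beginning at chr1:55088148. In the pools the genes lay in opposite orders at both ages. Hspd1 was higher in pool 1 than in pool 2 by 1.43 in aged and 0.65 in young cells, while pool 1 minus pool 2 for Hspe1 was -0.69 in aged and -0.34 in young cells.

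J proteins held the largest single differences in either direction. Of 44 J proteins 25 lay lower and 19 higher around a median of -0.08. At an unadjusted p under 0.05, 4 were lower and 2 higher, or 13.6% of them, against 9.04% of all genes. Dnajb5, a heat shock protein of heart and muscle known there to bind a histone deacetylase, stood at -1.08 and -2.16 in aged pools, against 1.08 and 1.28 in young pools. It had the most negative difference of all 80 members, -2.80 ± 0.48 (6.96-fold lower, adjusted p = 0.162), and its 3 probe sets ran from -3.81 to -2.00. Dnajb2, which carries ubiquitin-binding motifs and steers clients to the proteasome in neurons, stood at -0.75 and -1.66 in aged pools, against 1.67 and 0.75 in young pools. Its difference of -2.42 ± 0.52 (5.33-fold lower, adjusted p = 0.223) was -2.42 between pools numbered 1 and -2.41 between pools numbered 2.

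Of 27 DNAJC members 17 were lower and 10 higher, with 2 lower and 1 higher at an unadjusted p under 0.05. These made up 11.1% of the class, against 9.04% of all genes. The ages did not overlap in 18.5% of the class, against 36.8% of all genes. Dnajc21, which helps mature the large ribosomal subunit, stood at -0.96 and -0.75 in aged pools, against 1.30 and 0.60 in young pools (-1.81 ± 0.42, adjusted p = 0.256). Its 5 probe sets were all lower, from -3.89 to -0.20. Dnajc15, a protein of the inner mitochondrial membrane, stood at -1.29 and -0.57 in aged pools, against 0.67 and 0.57 in young pools (-1.55 ± 0.42, adjusted p = 0.322). In both genes the aged pools lay below both young pools. Dnajc27, a small GTPase with a J domain, stood at -1.14 ± 0.97 and overlapped, with young pools at 2.12 and -0.47.

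Dnajb9 and Dnajc14 were the J proteins higher at an unadjusted p under 0.05. Dnajb9, a partner of Hspa5 in the endoplasmic reticulum that is induced by the unfolded protein response, stood at 0.62 and 0.37 in aged pools, against -1.10 and -0.37 in young pools. The ages were apart, with a difference of 1.23 ± 0.42 (2.34-fold higher, adjusted p = 0.462). Dnajc14, a membrane protein of that compartment that aids receptor export, stood at 0.66 and 1.67 in aged pools, against -1.06 and -0.13 in young pools (1.76 ± 0.54, 3.39-fold higher, adjusted p = 0.399). Its 3 probe sets were higher, by 0.42, 2.41 and 2.46, but they put the aged pools in different orders. Aged pools 1 and 2 stood at 1.48 and -0.63 in the first, where the ages overlapped. They stood at 0.05 and 2.94 in the second and at 0.46 and 2.70 in the third. Dnajb12 and Dnajb14, tail-anchored membrane proteins that help degrade misfolded proteins, were lower, at -0.93 ± 0.42 and -0.66 ± 0.36, both without overlap. Dnajb14 was named after its values were seen.

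**Figure D3:**
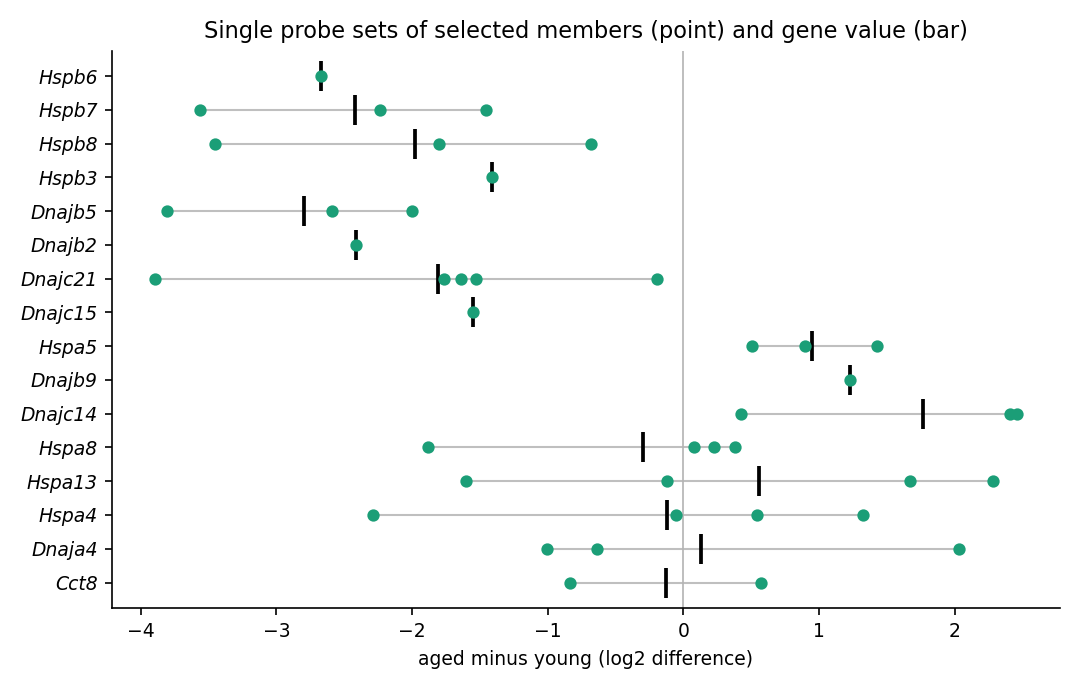
Log2 difference, aged minus young, of each single probe set (points) and of the gene value (black bar) for 16 chaperone genes. The upper 11 rows are the members with an unadjusted p under 0.05, of which Hspb6, Hspb3, Dnajb2, Dnajc15 and Dnajb9 have a single probe set; the lower rows, Hspa8, Hspa13, Hspa4, Dnaja4 and Cct8, were picked because their probe sets lie on both sides of 0.

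No DNAJA gene had an unadjusted p under 0.05. Among the DNAJA co-chaperones, Dnaja2 stood at -0.26 and -0.25 in aged pools, against 0.42 and 0.90 in young pools (-0.91 ± 0.38, adjusted p = 0.583), with all 4 probe sets lower. Dnaja1, which is heat-inducible, stood at 0.10 and 0.94 in aged pools, against -0.29 and -0.22 in young pools (0.78 ± 0.43, or 0.36 without aged replicate 2), with all 3 probe sets higher. These cytosolic partners of HSP70 thus lay on opposite sides of 0, each without overlap. Dnaja3, a mitochondrial J protein, stood at -0.21 ± 0.45 and Dnaja4 at 0.13 ± 0.52, with probe sets of Dnaja4 from -1.01 to 2.03. Dnajb4 stood at 0.64 ± 0.37 and Dnajb13, a protein of cilia and sperm tails, at 0.67 ± 0.54 (0.0089 without aged replicate 2). Dnajb1, the main heat-inducible J protein, named after its values were seen, stood at -0.12 ± 0.37. Of the 51 members with more than 1 probe set, 28 had probe sets in both directions and 23 in 1 direction.

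Chaperones that act in the lumen of the endoplasmic reticulum were set side by side after their values were seen. These 8 members comprised 5 higher and 3 lower ones (median 0.15), and among them only Hspa5 and Dnajb9 had an unadjusted p under 0.05 or ages that did not overlap. That was 2 of 8 by either measure, where 9.04% of all genes met the threshold and 36.8% had no overlap. Dnajb11 (0.05 ± 0.37), Dnajc1 (-0.02 ± 0.37), Dnajc3 (-0.26 ± 0.56) and Dnajc10 (-0.34 ± 0.47), all J proteins of that compartment, differed by less than their errors. Hsp90b1 and Dnajc3, whose promoters hold an ER stress element like that of Hspa5, thus lay at 0.26 and -0.26. Among 13 folding factors of the compartment outside the naming rule, 7 lay higher and 6 lay lower (median 0.14). Pdia4, a disulfide isomerase that works with Hspa5, stood at 1.05 and 0.65 in aged pools, against -0.45 and -1.03 in young pools (1.59 ± 0.41, adjusted p = 0.308). Hyou1, the exchange factor of Hspa5, stood at -0.10 ± 0.45, with 3 probe sets from -1.45 to 1.25.

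**Figure D4:**
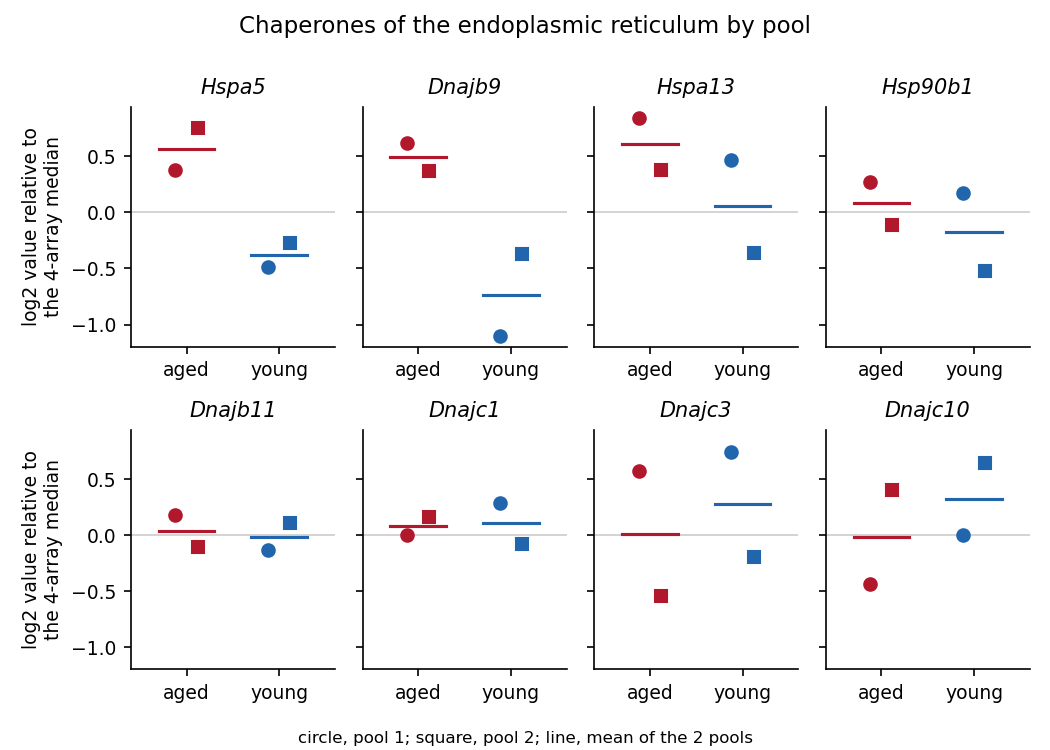
Values of 8 chaperone genes of the endoplasmic reticulum in each pool, on the log2 scale relative to the median of the 4 arrays, with aged pools on the left and young pools on the right. Circles are pool 1, squares pool 2 and lines the mean of the 2 pools; the aged pools lie above the young pools for Hspa5 and Dnajb9 and overlap them for the other 6.

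The 21 members with at least 1 match had a median difference of 0.11, with 10 lower and 11 higher, from -2.67 (Hspb6) to 0.78 (Dnaja1). The 45 without a match had a median of -0.05, with 24 lower and 21 higher. Of the 4 lower small heat shock proteins, Hspb6, Hspb3 and Hspb8 held a match and Hspb7 held none in its window. Among members with 3 matches in a window, Hsph1 stood at 0.72, Hspe1 at 0.11 and Hspd1 at -0.10. Immediate-early genes, known to respond to tissue dissociation, were higher in 11 of 18 cases (median 0.16). Among them Myc stood at 2.34 ± 0.66 (1.53 without young replicate 2) and Ier2 at -1.21 ± 0.36.

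Several members differed more between pools of 1 age than between ages. Dnajc7, a co-chaperone that binds both HSP70 and HSP90, stood at 1.31 and -0.82 in aged pools, against 0.82 and -1.58 in young pools. Dnajc9, a histone chaperone, stood at 1.17 and -0.88 in aged pools, against 0.88 and -1.47 in young pools. Dnajc8, a protein linked to splicing, stood at 0.78 and -1.29 in aged pools, against 0.95 and -0.78 in young pools. In these 3 genes pool 1 was above pool 2 by over 1 at both ages, a pattern held by 3.75% of members and 3.86% of all genes. Bag3, Dnajc30 and Dnajc27 had young pools 2.78, 2.91 and 2.59 apart, with aged pools nearer to each other. Dnajc30, a mitochondrial J protein, had a difference between ages of -0.01 ± 0.94. Dnajc8 and Dnajc30 were named for this pattern after their values were seen.

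**Figure D5:**
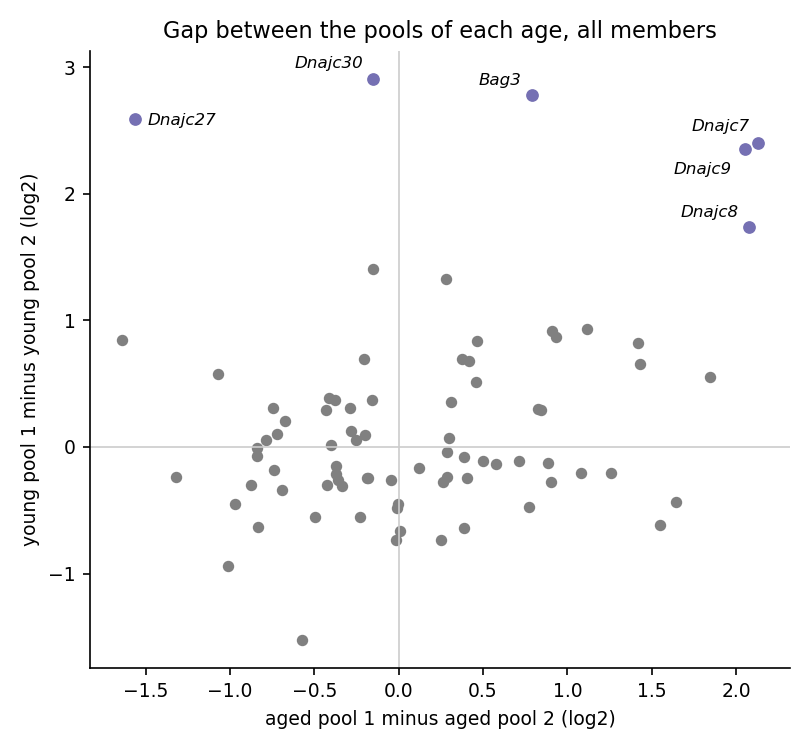
Gap between pool 1 and pool 2 of the aged cells (horizontal, log2) against the same gap in the young cells (vertical, log2), with a point for each of the 80 members. Dnajc7, Dnajc8 and Dnajc9 lie at the upper right with gaps from 1.73 to 2.40 at both ages, while Bag3, Dnajc27 and Dnajc30 have a young gap above 2.5.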

How the data were processed

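The deposited values were 1 table of 45101 probe sets on 4 arrays. The authors' deposited values are taken as log2 and their median over the 4 arrays is 0 within 5e-07 for every probe set. Which log base, background correction, probe summary and normalization were used is not given in the sources used here. Another base would change every fold but no direction or p-value. Higher values are assumed to mean more RNA. Array medians ran from -0.07 (young 1) to 0.05 (aged 2). Per the labels' protocols, RNA was amplified with T7 polymerase and labelled with biotin.

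Gene names came from the array's annotation and were brought up to date through Entrez IDs in the GRCm38.p6 gene table (34741 of 34945 probe sets with 1 symbol matched). Those with several symbols (932), none (9160) or for controls (64) were left out, which removed 3 probe sets shared by Dnajc19 and its pseudogene. Probe sets of 1 gene were averaged, and 29 members had 1.

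Aged was compared with young by limma 3.58.1 in R 4.3.3 (lmFit, eBayes without trend, two-sided) over all 18193 genes, with Benjamini-Hochberg adjustment. The fit was tested on simulated data. No value filter was applied, so all 80 members were tested. The labels call the pools independent. The p-values set each difference against the spread between pools, with the variance of each gene drawn toward a value common to all genes. Python 3.11.15 and matplotlib 3.10.9 drew the figures.

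Named genes were Bag3, all small heat shock proteins, all members of classes of 8 or fewer, and in larger classes those at an unadjusted p under 0.05 and the 3 largest differences each way. Beyond members, genes of the chaperone partner and immediate-early lists at an unadjusted p under 0.05 were named, with Cryab, Tcp1, Hsf1 and Hyou1. Cell type marker lists are given by counts, except Pax7, which was named after its values were seen. Members and lists were chosen with earlier results of these data known. A planned search of protein motifs was not run, and protein sequences were not used here. Alternatives were quantile normalization, the probe set with the largest SD, dropping the _x_at and _s_at probe sets, eBayes with trend, robust eBayes, symbols as printed, a replicate block and leaving out each pool.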

Additional observations from a re-analysis of the deposited data

How the results depend on the processing

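With 2 pools per age the number of arrays is the main limit, and no call could be lost because limma made none. Leaving out 1 pool gave 0 called members, 6 to 11 lower and 0 to 2 higher at an unadjusted p under 0.05, and a median of -0.101 to 0.069 over all members, with the lone pool left at that age assumed to vary like those of the other. Class medians then ran from -2.12 to -1.27 for the muscle small heat shock proteins, -0.0604 to 0.23 for HSP70, 0.26 to 0.62 for HSP110, 0.11 to 0.51 for HSP90, 0.10 to 0.29 for CCT, -0.18 to 0.19 for the mitochondrial chaperonin, -0.55 to 0.27 for DNAJA, -0.11 to 0.0163 for DNAJB and -0.20 to 0.0728 for DNAJC. The direction of 28 named genes changed without at least 1 pool, with ranges of Bag3 (-1.73 to 1.06), Cct6b (-0.19 to 0.0947), Cct8 (-0.95 to 0.69), Dnaja3 (-0.60 to 0.18), Dnaja4 (-0.50 to 0.76), Dnajc27 (-2.43 to 0.16), Dnajc7 (-0.58 to 1.82), Dnajc9 (-0.73 to 1.62), Hsp90b1 (-0.0897 to 0.60), Hspa1l (-1.40 to 0.0153), Hspa4 (-0.31 to 0.0682), Hspa8 (-0.66 to 0.0595), Hspa9 (-0.49 to 0.17), Hspb1 (-1.11 to 0.54), Hspb11 (-0.39 to 0.39), Hspb9 (-0.33 to 1.21), Hspd1 (-0.81 to 0.62), Hspe1 (-0.24 to 0.45), Dnajb1 (-0.26 to 0.0163), Dnajb11 (-0.0915 to 0.20), Dnajc1 (-0.20 to 0.17), Dnajc10 (-0.75 to 0.0793), Dnajc3 (-0.82 to 0.29), Dnajc30 (-1.46 to 1.44), Dnajc8 (-1.38 to 0.70), Hspa1b (-0.58 to 0.30), Hyou1 (-0.44 to 0.23) and Tcp1 (-1.03 to 0.12). The cause was not tested in any of these.

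The variance trend called 2 members, Dnajb5 (adjusted p = 0.0431) and Hspb6 (adjusted p = 0.0271), among 221 genes in all. Under the other settings run the adjusted p of Hspb6 was 0.150 to 0.671 and that of Dnajb5 0.156 to 0.671. When the most variable probe set stood for each gene, 1 member was higher at an unadjusted p under 0.05, and the medians were -2.04 for the muscle small heat shock proteins, 0.30 for CCT, 0.72 for HSP90, 0.19 for HSP70 and 0.79 for HSP110. The same choice turned Dnaja3 to 1.03, Dnaja4 to -0.64 and Hspe1 to -0.19. With _x_at and _s_at probe sets dropped the muscle small heat shock protein median was -1.92, Hspe1 stood at -0.19, Hyou1 at 0.57 and Dnajc3 at 0.0232. Quantile normalization gave an HSP70 median of 0.0676, and the near-zero differences of Hspb11, Hspd1, Dnajc1 and Dnajc30 became -0.0059, 0.0049, 0.0976 and 0.1391. The pools share a number only. With the replicate block 9 members were lower, 3 were higher and 0 passed after adjustment, and the deviations of same-numbered pools from their age mean correlated at 0.138 over 18193 genes. Robust eBayes and symbols as printed moved no count of members.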
